A study of Mus musculus with 7 samples.

Results

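The genes of the Arp2/3 complex and of the WAVE proteins that activate it were followed in P14 optic nerves of mice that lack FASN in the oligodendrocyte (OL) lineage. The group holds 10 genes, taken by symbol from the 22880 genes of the table: the complex subunits Arpc1a, Arpc1b, Arpc2, Arpc3, Arpc4, Arpc5, Actr2 and Actr3, and the WAVE genes Wasf1 and Wasf2. All 10 were among the 13866 genes tested, those with at least 0.5 FPKM (reads scaled for transcript length and library size) in at least 3 samples. RNA was sequenced from 4 control mice (CT; Fasn lox/lox without Cre) and 3 mutant mice (cMU; olig2cre Fasn lox/lox), and both optic nerves of a mouse formed 1 sample. All mice were on a C57Bl/6 background, to which the floxed Fasn line was backcrossed for at least 3 generations by the study's methods. The floxed allele comes from 129X1/SvJ and its line was also crossed with DBA. How much of these strains remained in each mouse is not given. By the labels of these samples, both groups were homozygous for the floxed Fasn allele. The study's methods name Fasn lox/wt mice too among the controls of its experiments in general. The Cre transgene was carried by the mutants alone, so that loss of FASN and presence of Cre cannot be told apart. Cre acts where the Olig2 promoter is active, whereas the nerve also holds astrocytes, microglia, vessels and meninges, and each value is a mean over all these cells. In such bulk RNA, fewer cells of a type and less RNA per cell cannot be told apart.

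The Arp2/3 complex binds the side of an actin filament and starts a new filament there, which builds the branched networks that push cell edges forward. Actr2 and Actr3 encode the actin-related proteins that form the start of the branch, and the ARPC subunits hold them together and on the mother filament. WAVE proteins, which act in a larger regulatory complex under the GTPase Rac, switch the complex on, and OLs use actin assembly to extend processes onto axons before actin is disassembled as the myelin sheath wraps.

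Sequencing depth was estimated from the authors' normalized counts over the genes of the table. It lay between 31314433 and 43462575 reads in control nerves and between 27452222 and 35750061 reads in mutant nerves. By the same estimate, each of the 10 genes was covered by 1650 to 15554 reads per sample. Fasn, the targeted gene, fell from 210.3, 169.1, 211.1 and 228.3 FPKM in control nerves 1 to 4 to 69.3, 50.5 and 49.0 FPKM in mutant nerves 1 to 3 (log2 difference -1.86, SE 0.138, adjusted p = 0.00312). All tests across genes were made with limma on log2(FPKM + 0.5), with Benjamini-Hochberg adjustment and a threshold of 0.05, and log2 differences are mutant minus control. The markers of mature OLs were the most abundant of the marker sets, with sums of at least 39886 FPKM, and 7 neuronal markers summed to between 24.1 and 49.2 FPKM in every nerve.

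RNA of 2 of the 10 genes, Arpc1b and Wasf1, fell in mutant nerves and that of none rose. At an unadjusted p under 0.05 there was 1 more, Arpc1a, also lower, and over all genes tested 8.5% were lower and 15.9% higher at that unadjusted p. After adjustment 1.36% of all genes were called lower and 1.26% higher. The 10 genes were chosen with earlier results of these data known, so no conclusion is drawn from their count beside these shares. Arpc1b fell by 0.48 on the log2 scale and Wasf1 by 0.39, whereas the estimates of the other 8 genes lay between -0.24 and 0.10. The estimate was below 0 for 7 of the 10 genes and for 5537 of all 13866. The median estimate was -0.05 over the 10 genes and 0.05 over all genes. The 2 genes that fell are an isoform gene of the ARPC1 subunit and 1 of the WAVE genes, and their close relatives Arpc1a and Wasf2 did not pass the test.

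**Figure D1:**
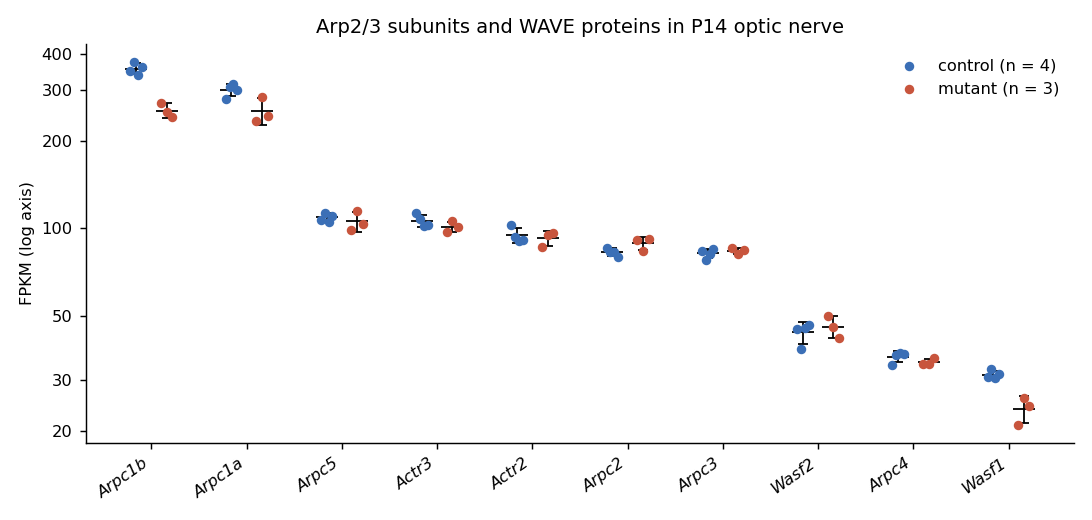
FPKM of the 10 genes in each optic nerve, with each point 1 nerve sample (4 control, 3 mutant) and bars giving the group mean and SD on a log axis. For Arpc1b and Wasf1 the mutant points lie below all control points, at 241 to 271 against 338 to 374 FPKM and at 21.1 to 26.1 against 30.5 to 32.8 FPKM.

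The levels of the 10 genes ran in the same order in both groups, by group mean: Arpc1b, Arpc1a, Arpc5, Actr3, Actr2, Arpc2, Arpc3, Wasf2, Arpc4 and Wasf1. FPKM values allow this comparison because they are scaled for length. Between neighbours in this order, the control samples overlapped for Arpc5 and Actr3, for Actr3 and Actr2, and for Arpc2 and Arpc3, and were apart for the other pairs. In mutants the samples overlapped for Arpc5 and Actr3, Actr2 and Arpc2, Arpc2 and Arpc3, and Arpc1b and Arpc1a. The last pair lay at means of 254.8 and 254.2 FPKM, and Arpc1a was the higher of the pair in 2 of 3 nerves.

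ARPC1 is the subunit that contacts the activator and the filament, and mammals have a pair of genes for it. On GRCm38, Arpc1b (ENSMUSG00000029622) spans 145114215 to 145130705 of chromosome 5, plus strand, and starts 5453 bases after the end of Arpc1a (ENSMUSG00000029621; 145083830 to 145108761, plus strand). Arpc1b measured 350.0, 374.1, 338.4 and 359.2 FPKM in control nerves 1 to 4 and 270.7, 252.3 and 241.4 FPKM in mutant nerves 1 to 3. Every mutant nerve was below every control nerve. Over all genes tested, 8.26% had every mutant sample below every control sample and 12.9% had every mutant sample above. The mean of Arpc1b was 355 ± 15.1 FPKM (SD, n = 4) in controls and 255 ± 14.8 FPKM (SD, n = 3) in mutants, 28.3% lower. The log2 difference was -0.48 (SE 0.0661, 95% interval -0.63 to -0.33, adjusted p = 0.0199). Without control 1, 2 or 3 or without mutant 3 the call was lost (adjusted p = 0.0502, 0.0571, 0.0787 and 0.0740), although the estimate stayed between -0.52 and -0.44 whichever nerve was left out. In these fits the calls over all genes also dropped, to 60, 15, 6 and 6, from 363 with all 7 nerves.

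Arpc1a measured 280.0, 307.3, 314.8 and 299.4 FPKM in control nerves 1 to 4 and 234.1, 284.5 and 244.0 FPKM in mutant nerves 1 to 3. The groups overlapped, since mutant 2 was above control 1. The mean was 300.4 ± 15.0 FPKM (SD, n = 4) in controls and 254.2 ± 26.7 FPKM (SD, n = 3) in mutants, and the log2 difference of -0.24 (SE 0.0811, 95% interval -0.43 to -0.06) did not pass (limma, adjusted p = 0.122). The same gene was called lower without mutant 2 (adjusted p = 0.0426) and when samples were weighted by quality (adjusted p = 0.0309), at log2 differences within the range of -0.33 to -0.19. In these fits 907 and 1525 of all genes passed, against 363 with all 7 nerves unweighted. Arpc1a and Arpc1b RNA added up to 630, 681.4, 653.2 and 658.6 FPKM in control nerves and 504.8, 536.8 and 485.4 FPKM in mutant nerves, a sum 22.4% lower. The 6 other Arp2/3 genes added up to 511 ± 11.3 FPKM (SD, n = 4) and 508 ± 12.7 FPKM (SD, n = 3), 0.765% lower. The gap between the groups for ARPC1 was thus not shared by the sum over the rest of the complex, a contrast drawn after the values had been seen and given without a test. On the scale of the authors' normalized counts the estimates of these 6 genes lay between -0.14 and 0.02.

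**Figure D2:**
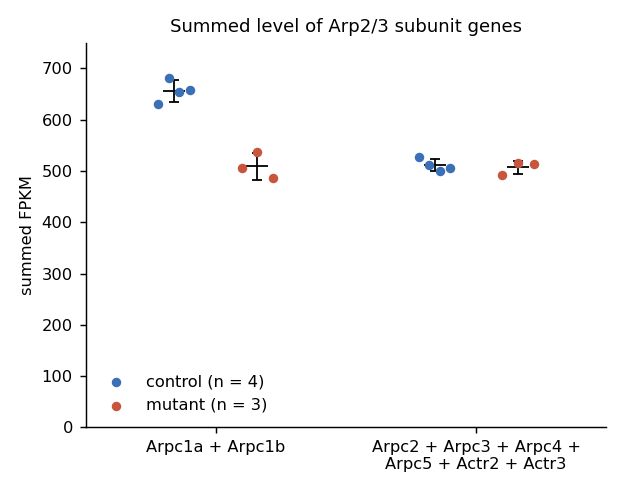
Summed FPKM in each nerve for the ARPC1 pair and the 6 other Arp2/3 genes, with points for samples and bars for group mean and SD. The ARPC1 pair lies at 485 to 537 FPKM in mutants and at 630 to 681 FPKM in controls, whereas the sums of the 6 other genes overlap.

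**Figure D3:**
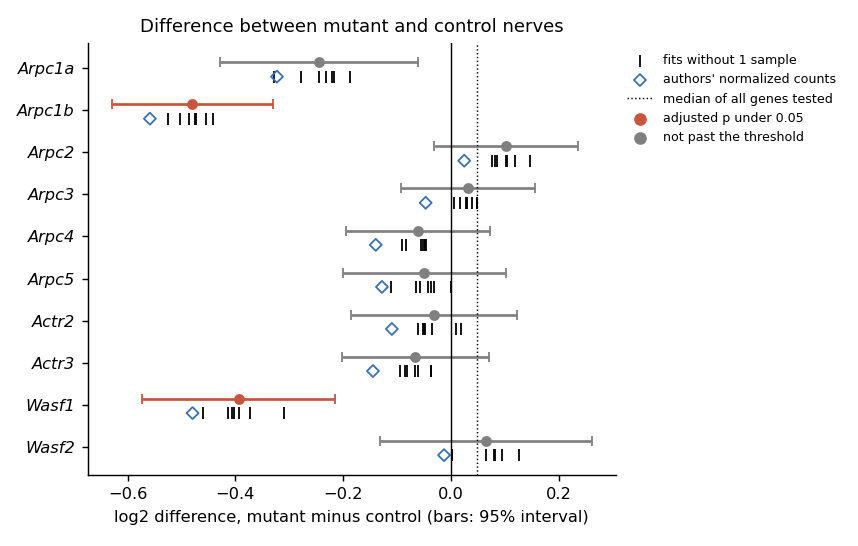
Log2 difference of each of the 10 genes (mutant minus control, on log2(FPKM + 0.5)), with bars for the 95% interval and colour marking an adjusted p under 0.05, ticks for fits without 1 nerve, diamonds for the authors' normalized counts and a dotted line at the median of all genes tested. The intervals of Arpc1b, Arpc1a and Wasf1 lie wholly below 0, and only Arpc1b and Wasf1 of the 10 genes passed after adjustment.

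Arpc1a and Arpc1b are neighbours, and the RefSeq promoter of each, and that of Wasf1, the other gene that fell, are shown with 250 bases before and 50 bases after the start. The windows are chr5:145083619-145083918 for Arpc1a, chr5:145114006-145114305 for Arpc1b and chr10:40883284-40883583 for Wasf1, all on the plus strand of GRCm38.p6 and written 5′ to 3′, with the GC box GGGCGG (either strand) in capitals.
Arpc1a: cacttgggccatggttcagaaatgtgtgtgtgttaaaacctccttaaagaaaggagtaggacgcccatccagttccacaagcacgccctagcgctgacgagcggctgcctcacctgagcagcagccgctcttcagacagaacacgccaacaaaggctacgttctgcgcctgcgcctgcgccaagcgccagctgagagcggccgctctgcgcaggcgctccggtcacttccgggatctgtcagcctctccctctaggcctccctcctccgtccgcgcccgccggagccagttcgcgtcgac
Arpc1b: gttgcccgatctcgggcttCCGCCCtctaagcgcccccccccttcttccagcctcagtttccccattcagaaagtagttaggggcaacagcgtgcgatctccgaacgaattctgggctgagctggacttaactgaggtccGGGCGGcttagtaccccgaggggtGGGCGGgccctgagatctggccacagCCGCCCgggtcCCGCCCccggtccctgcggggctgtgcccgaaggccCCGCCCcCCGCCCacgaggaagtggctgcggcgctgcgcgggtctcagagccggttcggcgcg
Wasf1: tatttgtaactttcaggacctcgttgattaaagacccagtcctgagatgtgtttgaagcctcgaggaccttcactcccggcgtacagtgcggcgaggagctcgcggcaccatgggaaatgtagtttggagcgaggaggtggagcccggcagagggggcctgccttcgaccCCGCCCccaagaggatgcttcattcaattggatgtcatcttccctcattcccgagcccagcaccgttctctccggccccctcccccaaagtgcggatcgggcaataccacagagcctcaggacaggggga
The Arpc1b window held 7 GC boxes, the Wasf1 window 1 and the Arpc1a window 0, and their GC contents were 69.3%, 59.0% and 63.0%. A promoter was matched for all 10 genes. A GC box was found in 8 of the 10, against 35.7% of the 32851 promoters of the same length, with Arpc1a and Arpc4 the 2 without. The windows of 9 of the 10 genes were also above the median GC content of all promoters, 52.7%, at up to 73.7%, and the part of base composition in this count was not tested. The motif CCAAT was found in 4 of 10 (37.4% of all), CANNTG, the E-box, in 7 of 10 (72.3%), TATAAA in 0 of 10 (13.6%) and the CArG box of serum response factor in 1 of 10, Arpc4 (1.63%). Both strands were searched for each motif. Arpc2 and Arpc5, which did not pass the test, held 3 GC boxes each and Actr2 held 5. Of the 10 genes, the 2 that fell and others that did not pass thus both carried the motif.

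Actr2 and Actr3 encode ARP2 and ARP3. Actr2 (ENSMUSG00000020152; chromosome 11, 20062304 to 20112913, minus strand) measured 103.0, 93.8, 90.7 and 91.4 FPKM in control nerves and 86.4, 95.1 and 96.5 FPKM in mutant nerves. Actr3 (ENSMUSG00000026341; chromosome 1, 125392905 to 125435727, minus strand) measured 113.1, 107.5, 102.0 and 102.9 FPKM in control nerves and 97.5, 105.7 and 101.5 FPKM in mutant nerves. Groups overlapped for both. The log2 differences were -0.03 for Actr2 (95% interval -0.19 to 0.12) and -0.07 for Actr3 (95% interval -0.20 to 0.07), with adjusted p = 0.816 and 0.537 by limma. These intervals do not reach the estimate of Arpc1b, -0.48. The sign of Actr2 turned with samples weighted by quality (0.03) and without control 1 (0.01) or mutant 1 (0.02).

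Arpc2 and Arpc4 form the core of the complex that lies on the mother filament. Arpc2 (ENSMUSG00000006304; chromosome 1, 74236084 to 74268209, plus strand) measured 85.9, 83.3, 82.9 and 79.5 FPKM in control nerves and 91.2, 83.8 and 92.3 FPKM in mutant nerves. Its log2 difference of 0.10 was the highest of the 10 (SE 0.0588, 95% interval -0.03 to 0.24, adjusted p = 0.316 by limma), with mutant 2 inside the control range. Arpc4 (ENSMUSG00000079426; chromosome 6, 113378113 to 113390448, plus strand) measured 34.0, 36.6, 37.2 and 37.1 FPKM in control nerves and 34.0, 34.3 and 35.8 FPKM in mutant nerves, which all lay within the control range. The means were 36.2 ± 1.52 FPKM (SD, n = 4) in controls and 34.7 ± 0.958 FPKM (SD, n = 3) in mutants, a log2 difference of -0.06 (SE 0.0589, 95% interval -0.19 to 0.07).

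Arpc3 and Arpc5 encode smaller, peripheral subunits. Arpc3 (ENSMUSG00000029465; chromosome 5, 122391878 to 122414184, plus strand) measured 83.5, 77.8, 81.8 and 84.95 FPKM in control nerves and 85.4, 81.8 and 84.1 FPKM in mutant nerves. Its means of 82.0 ± 3.07 FPKM (SD, n = 4) in controls and 83.8 ± 1.79 FPKM (SD, n = 3) in mutants overlapped within their spread, with a log2 difference of 0.03 (95% interval -0.09 to 0.16). Arpc5 (ENSMUSG00000008475; chromosome 1, 152766542 to 152775597, plus strand) measured 107.2, 113.3, 105.6 and 110.8 FPKM in control nerves and 98.5, 115.1 and 103.6 FPKM in mutant nerves, with means of 109 ± 3.48 FPKM (SD, n = 4) in controls and 106 ± 8.52 FPKM (SD, n = 3) in mutants and a log2 difference of -0.05 (95% interval -0.20 to 0.10). Mutant nerve 1 was the lowest of the 7 for Arpc5, at 98.5 FPKM, and mutant nerve 2 the highest, at 115.1 FPKM. The sign for Arpc3 turned with values centred on the median and with the authors' normalized counts (-0.05 in both), and that of Arpc5 turned without mutant 1.

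Wasf1 encodes WAVE1, the WAVE protein known best from brain, and Wasf2 encodes the widely expressed WAVE2. Wasf1 (ENSMUSG00000019831; chromosome 10, 40883475 to 40938570, plus strand) measured 30.8, 32.8, 30.5 and 31.5 FPKM in control nerves 1 to 4 and 21.1, 26.1 and 24.4 FPKM in mutant nerves 1 to 3. Every mutant nerve was below every control nerve, and the mean was 31.4 ± 0.998 FPKM (SD, n = 4) against 23.9 ± 2.55 FPKM (SD, n = 3). The log2 difference was -0.39 (SE 0.0788, 95% interval -0.57 to -0.22, limma adjusted p = 0.0428). With 1 nerve left out, the call was lost in each case but that of mutant 2, with adjusted p between 0.0672 and 0.122 for control 1, 2, 3 or 4 and mutant 1 or 3, at estimates between -0.46 and -0.31. It was also lost with 19291 genes in the test, without the minimum of 0.5 FPKM (adjusted p = 0.0790). Over all genes, 6 to 186 passed in the fits without 1 nerve that lost the call. Without mutant 2, 907 passed, against 363 with all 7 nerves.

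Wasf2 (ENSMUSG00000028868; chromosome 4, 133130505 to 133199756, plus strand) measured 45.2, 38.4, 45.4 and 46.6 FPKM in control nerves and 49.95, 45.7 and 42.0 FPKM in mutant nerves. The groups overlapped, with the lowest value in control 2 and the highest in mutant 1, and the log2 difference was 0.06 (95% interval -0.13 to 0.26, limma adjusted p = 0.683). Its sign turned with values centred on the median (-0.02), with the authors' normalized counts (-0.01) and with samples weighted by quality (-0.02).

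The share of each paralog within its family was then compared, since this measure does not move with library scaling. Wasf1 made up 34.5%, 39.0%, 34.5% and 34.7% of summed Wasf1, Wasf2 and Wasf3 FPKM in control nerves 1 to 4 and 25.0%, 29.96% and 29.8% in mutant nerves 1 to 3. The groups did not overlap, and the mean shares differed by -7.41 percentage points (35.7% ± 2.24, n = 4, against 28.3% ± 2.79, n = 3, SD; two-sided exact permutation p = 0.0571, 0.229 after Benjamini-Hochberg adjustment over 4 shares). With 4 samples against 3, 0.0571 is the smallest p this test can give, so it cannot reach 0.05. Arpc1b made up 54.2% ± 1.65 (SD, n = 4) of the ARPC1 pair in controls and 50.1% ± 3.33 (SD, n = 3) in mutants, and the groups overlapped (exact permutation p = 0.114, adjusted 0.229). Within the 3 pairs of same-numbered nerves the mean difference of this share was -3.97 percentage points, lower in each mutant (exact permutation p = 0.25, the smallest that 3 pairs can give), so these tests could not settle whether the share shifted. Arpc5l, the other ARPC5 gene, held 15.9% ± 0.749 (SD, n = 4) and 16.2% ± 1.01 (SD, n = 3) of its pair, and Actr3b, the other ARP3 gene, held 3.85% ± 0.472 (SD, n = 4) and 3.43% ± 0.720 (SD, n = 3).

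**Figure D4:**
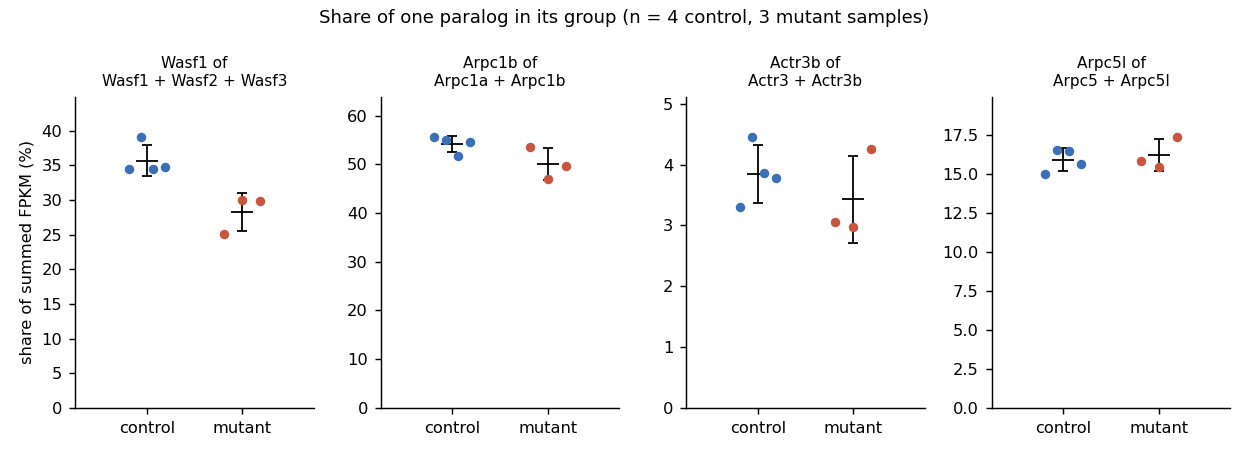
Share of 1 paralog in the summed FPKM of its family in each nerve (percent; points are samples, bars the group mean and SD). The Wasf1 share lies at 25.0% to 29.96% in the 3 mutant nerves and at 34.5% to 39.0% in the 4 control nerves, while the other 3 shares overlap.

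The sequences of the 10 genes were checked for stretches that reads could not assign. Of all windows of 125 bases, the read length, in the transcripts of each gene, 93.0% or more were found in that gene alone, and 0 were shared between members. Transcripts were searched in their own direction only, so a window that matches a gene on the other strand counts as the gene's own. For Arpc1b this share was 99.0%, and for Wasf1 and Arpc1a all windows were their own. Arpc1b overlaps Pdap1 on the other strand over 1937 bases. Whether the strand was used in counting is not given in the sources used here. Pdap1 measured at most 34.0 FPKM, with means of 32.8 and 31.4 FPKM in controls and mutants, and a log2 difference of -0.06 (limma adjusted p = 0.560). Kpna7, which overlaps Arpc1a over 201 bases on the other strand, measured at most 0.0213 FPKM, and Ttll3, which overlaps Arpc4 over 1189 bases on its own strand, at most 4.95 FPKM. The lowest shares of own windows were 93.0% for Arpc4, shared with Ttll3, and 93.2% for Actr3, shared with the predicted genes Gm15899 and Gm8822.

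The pattern across the 7 nerves was compared with that of every other gene tested, by the root mean square difference of log2 values taken relative to the control mean. Nearest to Arpc1b were Rep15 (0.0597), Fntb (0.0706) and Slc25a38 (0.0749), the genes of a Rab15 effector, a farnesyltransferase subunit and a mitochondrial glycine carrier. Rep15 was low, at means of 1.19 FPKM in controls and 0.70 FPKM in mutants, where the added 0.5 FPKM shrinks log2 differences. It did not pass (limma adjusted p = 0.0709). Nearest to Wasf1 were Prkcz (0.0284), Atcay (0.0330) and Atat1 (0.0464), which encode an atypical protein kinase C, caytaxin and an α-tubulin acetyltransferase. These distances are in log2 units and were given no test.

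The rest of the branched actin pathway was described from 8 lists with 71 genes tested. These lists too were chosen with earlier results of these data known, so their counts allow no fair comparison with all genes. Of the 71 genes, 2 fell and 0 rose, with a median of -0.02 and 38 estimates below 0. Over all genes tested, 1.36% were called lower and 1.26% higher, the median was 0.05 and 5537 of 13866 estimates were below 0. Coro2b, a coronin of the family that regulates Arp2/3 branches, measured 163.9, 174.1, 176.3 and 168.9 FPKM in control nerves and 123.3, 133.6 and 127.7 FPKM in mutant nerves (log2 difference -0.41, SE 0.0570, limma adjusted p = 0.0199). Gsn, gelsolin, which severs actin filaments, measured 1371, 1366, 1479 and 1586 FPKM in control nerves and 1119, 1106 and 990.4 FPKM in mutant nerves (log2 difference -0.44, SE 0.0891, limma adjusted p = 0.0437). For both genes every mutant nerve lay below every control nerve, as for 8.26% of all genes tested. The call of Coro2b was lost without control 2, control 3 or mutant 3 (adjusted p = 0.0571, 0.0916 and 0.0736), and that of Gsn without any nerve but mutant 2 (adjusted p = 0.0672 to 0.143) and without the minimum of 0.5 FPKM (adjusted p = 0.111). Over all genes, 6 to 907 passed with 1 nerve left out, against 363 with all 7 nerves.

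Upstream of the complex, 0 of the 9 other genes of the WAVE regulatory complex and 0 of 12 further activators of the WASP and WASH families passed with limma. Without adjustment, 2 and 0 genes had a p under 0.05, the 2 both higher, against 15.9% of all genes higher and 8.5% lower. In the WAVE complex Cyfip1, the subunit that binds Rac, had a log2 difference of 0.24 (adjusted p = 0.0911), and Wasf3, the gene of WAVE3, one of 0.18 (adjusted p = 0.206). The medians of these lists were 0.08 and 0.00. The other Arp2/3 subunits, Arpc5l and Actr3b, had -0.02 and -0.22 and did not pass, also unadjusted. Of the 11 WAVE complex genes tested, Wasf1 and Wasf2 included, Wasf1 passed.

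Downstream and beside the complex, 1 of 11 inhibitors, stabilisers and debranchers (Coro2b) and 1 of 12 disassembly and capping genes (Gsn) fell. Over all genes 1.36% were called lower, a comparison limited by the choice of the lists as given above. The medians of the 2 lists were 0.01 and -0.10. Among 16 formins and other nucleators 0 passed with limma, with a median of 0.15, and at an unadjusted p under 0.05 there were 4 higher and 1 lower, beside 15.9% and 8.5% of all genes. All 4 actins and profilins had estimates below 0 (median -0.20), as did 5537 of all 13866 genes. In 3 of the 4 each mutant nerve lay below each control nerve, as in 8.26% of all genes. However, 0 passed with limma, and 3 were lower at an unadjusted p under 0.05, beside 8.5% of all genes. Actb, β-actin, had -0.25 (limma adjusted p = 0.0837).

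**Figure D5:**
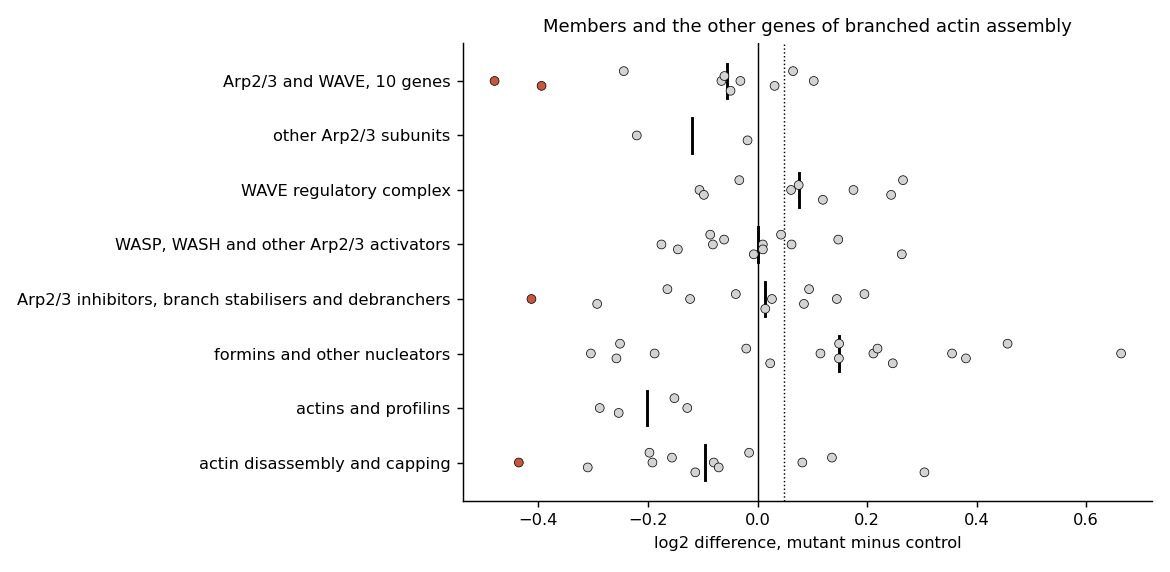
Log2 difference (mutant minus control) of each tested gene of the 10 Arp2/3 and WAVE genes and of 7 lists, with a thick bar at the list median, colour for an adjusted p under 0.05, and a dotted line at the median of all genes tested, 0.05. Arpc1b and Wasf1, Coro2b and Gsn are the coloured points.

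The samples carry the replicate numbers of their labels, and with the number as a block 2 of the 10 genes again passed, Arpc1b (log2 -0.47, adjusted p = 0.0255) and Wasf1 (log2 -0.39, adjusted p = 0.0351), beside 1.94% of all genes called lower and 6.42% called higher. Control 4 has no partner of its number and does not enter these estimates. In the pathway lists the block gave 3 calls, Coro2b lower and Fmn1 and Cobl higher, and Gsn no longer passed (adjusted p = 0.0691). Over all genes, 188 were lower and 175 higher without the block. Other scalings moved this split: 283 lower and 117 higher with values centred on the median, 281 and 141 with quantile scaling, and 267 and 103 with the authors' normalized counts, where the median of all genes moved from 0.05 to -0.03. On that last scale Arpc1b had -0.56 and Wasf1 -0.48, and each of the 10 estimates but that of Arpc2 lay below 0.

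In the fit without the block, calls among cell type markers lay mainly in the OL and astrocyte sets. In that fit 1.36% of all genes were called lower and 1.26% higher. Of 8 mature OL markers 2 fell (Cnp and Mag), with a median log2 difference of -0.37 and sums of 55042 to 62764 FPKM in control and 39886 to 51199 FPKM in mutant nerves. Of 6 markers of newly formed OLs 2 fell, with a median of -0.37. Of 8 astrocyte markers 4 rose (median 0.50; sums of 3235 to 3645 and 4066 to 5012 FPKM). Of the markers of OL progenitors (OPCs) 1 of 6 fell (Cspg4; median -0.05), and 0 of 10 microglial, 0 of 6 endothelial and 0 of 6 meningeal fibroblast markers passed with limma, with medians of 0.14, 0.32 and 0.55 and with 3, 4 and 3 at an unadjusted p under 0.05, all higher, beside 15.9% of all genes. With the replicate number as a block, 0 mature OL markers passed, 4 of 6 markers of newly formed OLs and 2 of 6 OPC markers were lower, and 5 of 8 astrocyte, 1 of 10 microglial, 2 of 6 endothelial and 5 of 6 fibroblast markers were higher, with 1.94% of all genes lower and 6.42% higher in that fit. No marker of these sets was at 0 in all samples. Beside these medians Arpc1b had -0.48 and Wasf1 -0.39, and the part of the OL and astrocyte marker shifts in their fall was not tested.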

How the data were processed

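RNA of both optic nerves of each P14 mouse was read in single end mode after a stranded poly-A library preparation (4 control, 3 mutant mice). Per the submitters' notes and the study's methods, the authors aligned the reads to GRCm38 with STAR 2.5.1b and estimated gene levels with RSEM 1.2.22. The authors deposited a normalized count per gene and sample, a signal whose scaling method is not given in the sources used here, and an FPKM value. The deposited table also holds the authors' own log2 ratio, p-value and FDR from edgeR, which were not used. Low normalized counts were whole multiples of 1 read (within 0.05) in 75.7% to 81.0% of the values of 0.5 to 10 reads per sample, so no count test was run, and depth was the total divided by the most frequent nonzero value.

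FPKM values were tested as log2(FPKM + 0.5) with limma-trend (limma 3.58.1, R 4.3.3), with genotype as the only term, over 13866 genes with at least 0.5 FPKM in at least 3 samples. Such differences understate changes of low genes. The fit was tested on simulated data. Shares were compared with exact permutation tests in Python 3.11.15. Same-numbered samples deviated together (r = 0.168, 0.409 and 0.270 across genes; other pairs -0.353 to 0.205), so the label numbers were taken to pair them in the block fit, although what a number stands for is not stated. The pairing was thus inferred from the same values that the block fit tests. Control 4 and mutant 1 (r = 0.205) deviated together more than the pair of number 1 (r = 0.168). All 10 genes, Fasn, pathway genes that passed, paralogs, overlapping genes and the 3 most similar patterns were named by rule, and other pathway genes were named after their values were seen. Members and lists were chosen with earlier results of these data known. Alternatives were other pseudocounts, filters and scalings, sample weights, the block and leaving out each sample. P-values measure the spread between mice. Promoters came from RefSeq. Of the 8 pathway lists, 1 enters the total counts but is not reported here on its own.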

Additional observations from a re-analysis of the deposited data

Results flagged for a closer look

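The share of Wasf1 in summed Wasf1, Wasf2 and Wasf3 FPKM was 39.0% in control nerve 2, far from the 34.5%, 34.5% and 34.7% of the other control nerves, a gap of 0.959 of the range of the 4 values. Wasf2 was lowest in the same nerve, at 38.4 FPKM. It was 1 of 14 groups of values checked in this way, and chance gives about 1 in 20.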

How the results depend on the processing

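Arpc1b and Wasf1 kept their direction under each of the 16 alternatives run, at log2 differences of -0.56 to -0.44 and -0.48 to -0.31. With no nerve left out, Arpc1b passed in 9 of 9 alternatives (adjusted p 0.00495 to 0.0464 by limma) and Wasf1 in 8 of 9 (0.0132 to 0.0790), and with 1 nerve left out they passed in 3 of 7 and 1 of 7. Over all genes, 363 passed, against 95 without the filter, 1525 with quality weights, 1159 with the replicate block and 6 to 907 with 1 nerve left out. Of the 10 genes, 2 passed, against 1 without the filter, 3 with quality weights and 0 to 3 with 1 nerve left out. Of the pathway genes 2 passed, against 1 without the filter, 5 with quantile scaling, 10 with quality weights, 3 with the replicate block and 0 to 5 with 1 nerve left out. Signs turned for Arpc3 with median centring (-0.0513) and normalized counts (-0.0468), for Wasf2 with median centring (-0.0177), normalized counts (-0.0126) and quality weights (-0.0212), for Actr2 with quality weights (0.0296) and with 1 nerve left out (-0.0614 to 0.0181), for Arpc5 with 1 nerve left out (-0.112 to 0.000206), and for the Arpc5l share with 1 nerve left out (-0.278 to 0.680 percentage points). The cause was not tested.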

Other observations

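Among the pathway lists, 8 genes known mainly from blood-derived cells and microglia were singled out after their values had been seen: Nckap1l, Abi3, Was, Rac2, Gmfg, Coro1a, Hcls1 and Fmnl1, the leukocyte relatives or regulators of WAVE, WASP, Rac, GMF, coronin, cortactin and formin proteins. All 8 had estimates above 0, from 0.03 for Coro1a to 0.39 for Rac2, and 0 passed in limma after adjustment. Because the 8 were picked with their values known, the shared sign is no evidence about such genes as a set. In the list that held Was, 6 of 12 estimates were below 0, among them Wipf1 (-0.15). The median log2 difference of the 8 picked genes was 0.21, beside 0.05 over all genes tested, where 5537 of 13866 estimates were below 0. At an unadjusted p under 0.05 there were Nckap1l (0.27, limma adjusted p = 0.135) and Rac2 (limma adjusted p = 0.128), beside 15.9% of all genes higher at that p. The 10 microglial markers had 0 calls and a median of 0.14, and their sums were 332 to 406 FPKM in control and 369 to 421 FPKM in mutant nerves.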
